A study of Homo sapiens with 12 samples.

Results

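The genes described here are 36 human genes for cytokines, chemokines, and the subunits, inhibitors and targets of the transcription factor NF-κB, taken by name from a deposited table of read counts that lists 60448 genes. RNA sequencing covered 12 libraries of 786-O, an established cell line derived from a clear cell renal cell carcinoma, with 3 libraries in each of 4 groups. All cells had been transiently transfected with a short interfering RNA (siRNA), which was a control siRNA in siNC, and an siRNA against GABPA (an ETS family transcription factor) in siGABPA, against GPD1L (an enzyme related to glycerol-3-phosphate dehydrogenase) in siGPD1L, and against BRD9 (a bromodomain subunit of a chromatin remodelling complex) in siBRD9. The medium was DMEM with serum by the labels but RPMI-1640 by the study's methods. Which siRNA was used against each gene, and for how long, is not given in the sources used here. The siGPD1L and siBRD9 groups are known from the labels alone. The control libraries held 21419987, 21691030 and 24469305 counts. The siGABPA libraries held 27363062, 26976132 and 26395629, the siGPD1L libraries 27440715, 28650340 and 27755441, and the siBRD9 libraries 29999290, 19499090 and 22070520. All libraries came from the same cell line, and the labels only number the replicates. The study describes its sequencing of GABPA-depleted cells as derived from independent experiments, and for siGPD1L and siBRD9 this is not given in the sources used here, so that their p-values measure the spread between these libraries, which may be technical.

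Chemokines are small secreted proteins that attract leukocytes through receptors on their surface. The ELR group of CXC chemokines, named for the amino acids before the first cysteines, draws neutrophils and CC chemokines such as CCL2 draw monocytes, while CXCL10 and CXCL11 act on activated T cells. NF-κB is a dimer of subunits such as RELA, RELB and the processed products of NFKB1 and NFKB2, is held in the cytoplasm by inhibitors such as the product of NFKBIA, and enters the nucleus after signals from TNF, interleukin 1 and receptors for microbial products. There it binds κB sites in the promoters of many cytokine genes and of its own inhibitors NFKBIA and TNFAIP3, which close the loop. Renal carcinoma cells are known to secrete several of these factors, among them IL6, CXCL8 and CSF1.

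The ELR chemokine genes lie beside each other on chromosome 4 in the order CXCL8, CXCL6, CXCL1, CXCL5, CXCL3 and CXCL2 over 358788 bases, and their promoters hold closely similar κB matches although the genes differed widely in the libraries. The following stretches are shown for that reason, from the RefSeq promoter windows of build GRCh38.p14, 5′ to 3′ on the strand of each gene, with the match to GGNNNTTCC in capitals and 10 bases on either side.
CXCL8: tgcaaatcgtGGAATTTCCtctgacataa
CXCL6: ctgagttcagGGAATTTCCccagcatccc
CXCL1: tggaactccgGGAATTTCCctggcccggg
CXCL5: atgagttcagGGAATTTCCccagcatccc
CXCL3: tggagctccgGGAATTTCCctggcccggc
CXCL2: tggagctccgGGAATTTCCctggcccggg
They stand at chr4:73740468-73740496 (plus strand) for CXCL8, chr4:73836579-73836607 (plus strand) for CXCL6, chr4:73869305-73869333 (plus strand) for CXCL1, chr4:73998749-73998777 (minus strand) for CXCL5, chr4:74038749-74038777 (minus strand) for CXCL3 and chr4:74099254-74099282 (minus strand) for CXCL2. The match shown ended 82 bases before the RefSeq start of CXCL8, 80 before CXCL6, 69 before CXCL1, 81 before CXCL5, 69 before CXCL3 and 68 before CXCL2. CXCL1, CXCL2 and CXCL3, but not the others, also hold a match of the letters GGGCTTTCC that ended 44 bases before the start. All 6 genes carry the same 9 letters, GGAATTTCC.

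The next set shows κB matches of genes that moved in opposite directions, IL6 and CSF2, which were higher in all 3 knockdown groups than in siNC, IL32, which was lower in all 3, and NFKBIA and ICAM1, whose direction or size depended on the knockdown. The last stretch is the match of TNFSF10 to the core of an interferon-stimulated response element (ISRE), TTTC and TTTC with 2 bases of any kind between, again in capitals.
IL6: atcaaatgtgGGATTTTCCcatgagtctc
CSF2: ataagggccaGGAGATTCCacagttcagg
IL32: tcccgagtctGGACTTTCCctctgcccct
NFKBIA: tgactggcttGGAAATTCCccgagcctga
ICAM1: gctttagcttGGAAATTCCggagctgaag
TNFSF10: gaggagcttcTTTCAGTTTCcctcctttcc
They stand at chr7:22727118-22727146 (plus strand) for IL6, chr5:132073677-132073705 (plus strand) for CSF2, chr16:3065325-3065353 (plus strand) for IL32, chr14:35404812-35404840 (minus strand) for NFKBIA, chr19:10270924-10270952 (plus strand) for ICAM1 and chr3:172523598-172523627 (minus strand) for TNFSF10. CSF2, IL32 and NFKBIA hold further κB matches that are not shown. A RefSeq window (250 bases before to 50 bases after the start, 300 in all) was found for 28 of the 36 genes. On either strand (GGNNNTTCC or GGAANNNCC, which contains the ETS core GGAA), the κB letters were present in 21 of the 28, or 75.0%, against 23.5% of the 27305 genes with a window. The ISRE letters, searched on both strands (GAAA and GAAA with 2 bases between on the other), were in 4 of 28 (14.3%, against 4.38%), namely CXCL10, TNFSF10, RELA and VCAM1. An ETS match of the letters CCGGAAG or CTTCCGG was in 1 of 28, CXCL1 (3.57%, against 12.2%). The genes were listed in part as known NF-κB targets, and a match of letters is a description of the window, not of binding.

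Of the 36 genes, 34 reached 10 counts in at least 1 library. CXCL6, a neutrophil chemokine, had 0 counts in all 12 libraries, which allows up to 3 counts per library, and PTGS2, the inducible cyclooxygenase, had at most 4 counts in a library. Levels between genes were compared as RPKM, the scaled counts divided by the length of annotated exon (GENCODE 29). In siNC the highest was IL32 at 142 RPKM, followed by TNFAIP2 at 48.6, TNFSF10 at 41.7, ICAM1 at 33.2, CXCL5 at 33.03, NFKB2 at 31.9 and CSF1 at 31.4 RPKM. IL6 stood at 0.438, CXCL11 at 0.223 and TSLP at 0.00349 RPKM in the same group. Defining markers of leukocytes, another source of cytokine mRNA, were close to 0. Of 10 listed, 2 (CD14 and ITGAM) reached 10 counts in any library, CD14 was the most abundant with at most 13 counts, PTPRC had at most 1 count, CD3E and MS4A1 had 0 counts in all libraries, and the 10 together summed to 7 to 24 counts per library. The endothelial markers summed to 9 to 24 counts per library over 6 genes, of which KDR was the most abundant with at most 16 counts. All 10 markers listed for renal carcinoma cells, among them PAX8 and EPAS1, were detected.

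Each targeted mRNA was lowest in its own group. GABPA mRNA, in CPM (counts scaled by TMM to a common library size), was 44.5, 51.2 and 42.9 CPM in siNC, 16.9, 14.3 and 15.3 with siGABPA, 24.97, 25.96 and 25.8 with siGPD1L and 25.3, 26.1 and 30.5 with siBRD9. On the log2 scale the difference from siNC was -1.57 in siGABPA, -0.85 in siGPD1L and -0.75 in siBRD9 (SE 0.0754, 0.0622 and 0.0743, adjusted p = 2.39e-12, 8.25e-11 and 2.78e-08). GABPA was thus lower than in the control also in the 2 groups transfected against other genes. It was lower still in siGABPA than in siGPD1L, with a log2 fold change of -0.72 (SE 0.0698, adjusted p = 3.01e-09), and than in siBRD9, at -0.81 (SE 0.07800, adjusted p = 3.03e-09). GPD1L mRNA was 19.1, 19.4 and 20.3 CPM in siNC, 22.98, 21.9 and 22.05 with siGABPA, 6.52, 5.91 and 7.49 with siGPD1L and 21.2, 20.8 and 19.3 with siBRD9. In siGPD1L the log2 fold change against siNC was -1.56 (SE 0.0934, adjusted p = 2.79e-12). BRD9 mRNA was 98.8, 101 and 102 CPM in siNC, 80.9, 79.04 and 71.995 with siGABPA, 76.03, 80.6 and 72.01 with siGPD1L and 23.2, 24.9 and 27.7 with siBRD9. It had a log2 fold change of -1.99 (SE 0.0554, adjusted p = 1.63e-16) in siBRD9 and smaller differences of -0.38 in siGABPA and -0.40 in siGPD1L. For all 3 genes the libraries of the targeted group were below all libraries of every other group.

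Against siNC, cytokine genes moved in both directions in each knockdown. Differentially expressed genes (DEGs) had to differ by more than 1.5 times with an adjusted p below 0.05 (edgeR's quasi-likelihood test, Benjamini-Hochberg adjustment over all genes tested). In siGABPA 9 of the 31 genes tested were higher and 8 were lower, where 21.3% and 15.2% of all 16140 genes tested were called. In siGPD1L 13 of 31 were higher and 8 lower, against 20.4% and 15.5% of 15929 genes. In siBRD9 11 of 29 were higher and 5 lower, against 16.7% and 11.5% of 15475 genes. Among the members of the group that were tested, the median log2 fold change was -0.018 with siGABPA, 0.379 with siGPD1L and 0.308 with siBRD9. Over all genes it was 0.0246, 0.0145 and 0.0075. With siGABPA, the 3 libraries of 13 tested genes lay above and those of 13 lay below all siNC libraries, where 38.3% and 36.7% of all genes tested did so. With siGPD1L the numbers were 17 and 9 (37% and 36.7% of all genes), and with siBRD9 they were 16 and 10 (34.6% and 35.7%). At an adjusted p below 0.05 alone, the numbers higher and lower were 12 and 13 (37.1% and 35.6% of all genes) with siGABPA, 16 and 9 (36.2% and 35.4%) with siGPD1L and 16 and 10 (33.8% and 33.5%) with siBRD9. The 3 comparisons share the siNC libraries, so that their values are given side by side. In bulk RNA, less mRNA per cell and fewer cells that express a gene cannot be told apart.

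Called higher in each of the 3 comparisons, which share their controls, were the chemokines CCL5, CXCL1 and CXCL11, the interleukins IL6 and IL11, the colony stimulating factor CSF2 and the death ligand TNFSF10. Called lower in each were the chemokines CCL2 and CXCL5, IL32, CSF1 and TNF. Tested in all 3 and DEGs in none were CXCL3, IL15, TNFAIP3, NFKB2, RELA, RELB and BIRC3. CXCL6, IL1B and PTGS2 had too few counts for a test against siNC. Among the genes called, CXCL11 (in all 3 comparisons), IL1A (siGABPA), CCL20 and TSLP (siGPD1L), and TNF (siGABPA and siGPD1L) met the filter on low counts only through the group where they were higher, so that their calls are a description. Against siNC, CCL20 and TSLP entered the fit in siGPD1L alone. Without TMM factors, on total counts only, the median log2 fold change of all genes moved to 0.2422, 0.1843 and 0.1331. The calls among the 36 genes then became 13 higher and 7 lower with siGABPA, 15 and 7 with siGPD1L, and 13 and 5 with siBRD9. Over the whole table they went from 3437 higher and 2453 lower to 4854 and 1387 with siGABPA, from 3242 and 2465 to 4196 and 1572 with siGPD1L, and from 2588 and 1773 to 3299 and 1213 with siBRD9. No gene called against siNC changed direction with that scaling. In GENCODE 29, 12 of the 36 genes overlap a gene on the opposite strand, and the strand setting of the counts is not given in the sources used here, so that reads of such partners cannot be told apart from theirs. Of the 12, CCL5, CXCL10, CXCL11, IL32 and TNFSF10 share no exon bases with the partner, while CXCL16, IL6, LIF, TSLP, TNFAIP3, RELA and ICAM1 do.

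**Figure D1:**
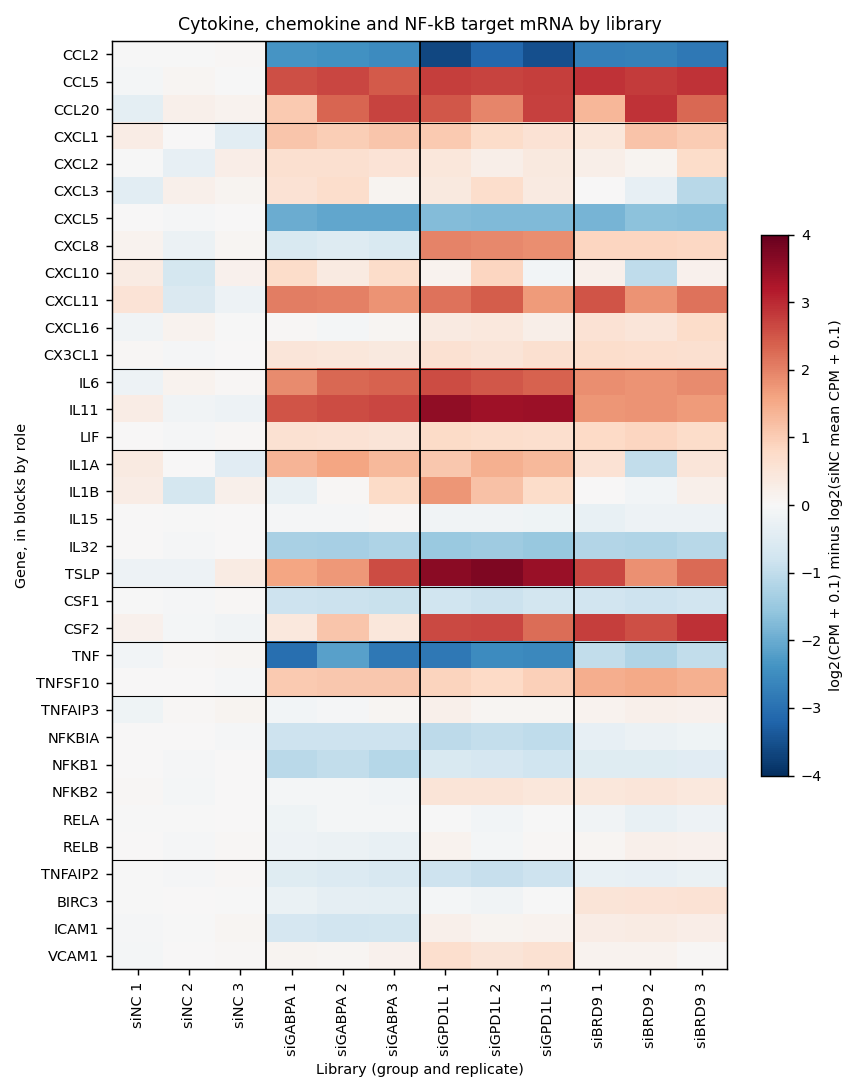
Level of the 34 detected genes (rows, in blocks by role) in each of the 12 libraries (columns, by group and replicate), as log2(CPM + 0.1) minus the log2 of the siNC mean CPM + 0.1. Replicates of a group resemble each other, CCL5, IL11, CXCL11 and IL6 are red and CCL2, CXCL5 and IL32 blue in all knockdown libraries, and CXCL8, CSF2 and TNF differ in depth or sign between the knockdowns.

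Among the CC chemokines, CCL2 (ENSG00000108691, chromosome 17, 34255218 to 34257203 of GRCh38), the main attractant of monocytes, was 45.1, 44.6 and 46.5 CPM in siNC, 8.73, 8.45 and 7.93 with siGABPA, 3.53, 5.002 and 3.901 with siGPD1L and 6.66, 6.86 and 6.101 with siBRD9. Every knockdown library lay below every siNC library, and the siGPD1L libraries were the lowest. Relative to siNC, the log2 fold change came to -2.44 in siGABPA, -3.44 in siGPD1L and -2.78 in siBRD9 (SE 0.0648, 0.0906 and 0.0722, adjusted p = 9.29e-16, 3.13e-18 and 6.04e-17). CCL2 was higher in siGABPA than in siGPD1L, by a log2 fold change of 1.02 (SE 0.124, adjusted p = 1.42e-07), and lower in siGPD1L than in siBRD9, at -0.65 (SE 0.136, adjusted p = 3.13e-04). The second of these calls was lost without siGPD1L replicate 1, when the log2 fold change was -0.56. Between siGABPA and siBRD9 the difference, 0.36 (SE 0.105, adjusted p = 0.00555), passed the adjusted p but not the fold change of a DEG.

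CCL5 (ENSG00000271503, chromosome 17, 35871491 to 35880793), which attracts T cells, monocytes and eosinophils and is known both as an NF-κB target and as an interferon-induced gene, was 4.68, 5.12 and 4.89 CPM in siNC, 29.7, 31.7 and 27.5 with siGABPA, 33.9, 32.3 and 33.6 with siGPD1L and 37.2, 34.99 and 37.01 with siBRD9. All 9 knockdown libraries were above the siNC libraries by a wide gap, and the order among the knockdowns was siGABPA, siGPD1L and siBRD9, without overlap but with no pair a DEG. edgeR gave a log2 fold change of 2.59 in siGABPA, 2.77 in siGPD1L and 2.91 in siBRD9 (SE 0.0868, 0.0812 and 0.0806, adjusted p = 1.74e-14, 1.76e-17 and 1.55e-16). Of the 50-base windows of its exons, 13.9% were shared with other genes, so that some of its reads could have been placed elsewhere, and it overlaps AC015849.1 on the opposite strand. CCL20, the ligand of CCR6, was 0, 1 and 1 counts in siNC, 5, 16 and 21 with siGABPA, 18, 12 and 22 with siGPD1L and 7, 17 and 12 with siBRD9. The summed counts per scaled total were higher than in siNC by a ratio of 15.1 (95% counting interval 3.94 to 129) in siGABPA, 18.6 (95% counting interval 4.88 to 157) in siGPD1L and 15.4 (95% counting interval 3.98 to 132) in siBRD9, intervals that cover counting error only. Only siGPD1L met the filter on low counts, through its own libraries, so that no test is given.

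**Figure D2:**
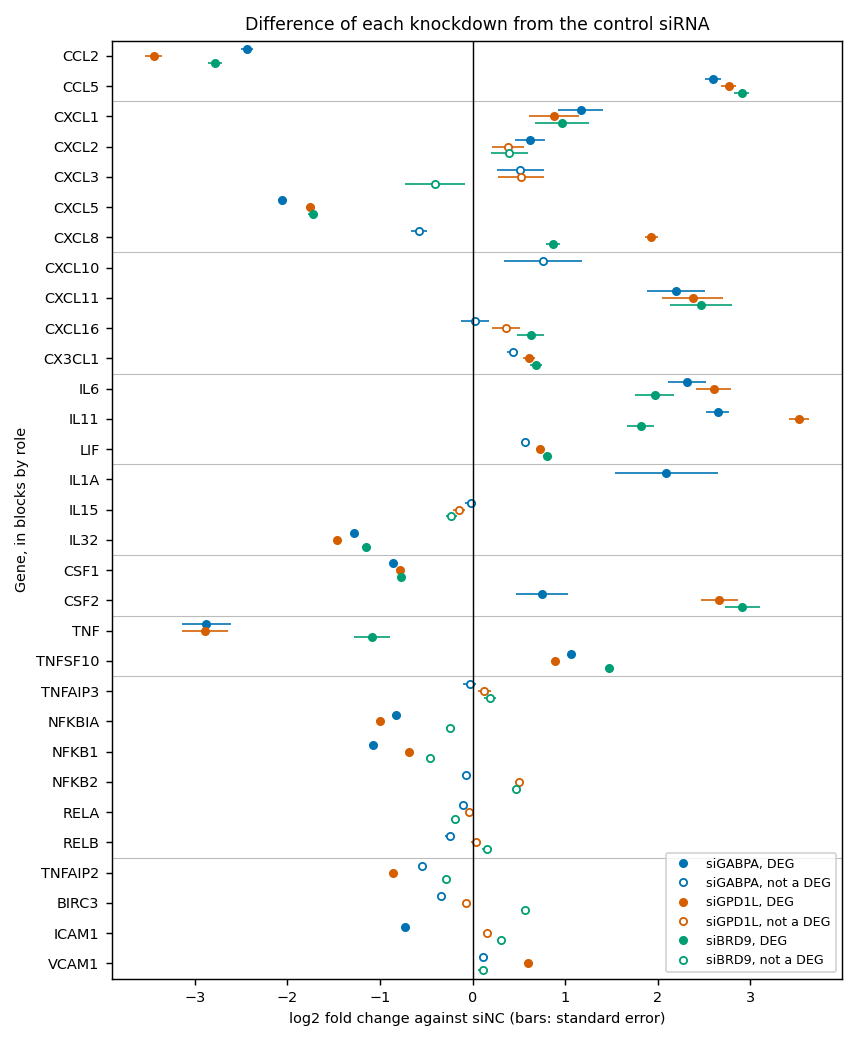
log2 fold change against siNC (horizontal axis) of 31 genes tested in at least 1 of the comparisons, leaving out CCL20 and TSLP, whose siNC counts are at most 1 per library, with bars for the standard error. Colours give the knockdown, filled points are DEGs, and the points of CCL2, CXCL5, IL32, CSF1 and TNF lie left of 0 in all 3 groups while those of CCL5, CXCL11, IL6 and IL11 lie right. CXCL11, CXCL10 and IL1A in siGABPA, and TNF in siGABPA and siGPD1L, met the filter on low counts only through the higher group. So did CXCL11 in siGPD1L and siBRD9, and all these points are a description.

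The ELR chemokines, ligands of CXCR2 that attract neutrophils, moved in different directions. CXCL8 (ENSG00000169429, chromosome 4, 73740506 to 73743716), interleukin 8, was 24.9, 18.9 and 23.7 CPM in siNC, 14.6, 15.8 and 14.8 with siGABPA, 89.7, 85.8 and 81.2 with siGPD1L and 41.1, 40.7 and 40.4 with siBRD9. The siGPD1L libraries were the highest, the siBRD9 libraries came next and were also above siNC, and the siGABPA libraries were below siNC, with no overlap between any pair of groups. The log2 fold change was -0.58 in siGABPA, 1.93 in siGPD1L and 0.87 in siBRD9 (SE 0.0883, 0.0682 and 0.0754, adjusted p = 1.23e-05, 3.82e-16 and 4.09e-09). The lower level in siGABPA passed the adjusted p but stood just under the fold change of a DEG, and was called with RLE scaling (log2 fold change -0.59), with DESeq2 (-0.59), without siNC replicate 2 (-0.70) and without siGABPA replicate 2 (-0.61). Compared directly, CXCL8 was lower in siGABPA than in siGPD1L, by a log2 fold change of -2.50 (SE 0.0533, adjusted p = 4.61e-22), and than in siBRD9, at -1.43 (SE 0.0605, adjusted p = 6.39e-16), and was higher in siGPD1L than in siBRD9, at 1.07 (SE 0.0469, adjusted p = 9.41e-16).

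CXCL5 (ENSG00000163735, chromosome 4, 73995642 to 73998779), which had the highest level of this group in siNC, fell in all 3 knockdowns. It was 84.8, 81.7 and 85.1 CPM in siNC, 21.1, 19.8 and 19.7 with siGABPA, 25.2, 24.5 and 24.6 with siGPD1L and 23.2, 26.7 and 26.1 with siBRD9. The siNC libraries were above all others, and siGABPA was the lowest group. Its log2 fold change was -2.06 in siGABPA, -1.75 in siGPD1L and -1.72 in siBRD9 (SE 0.0475, 0.0464 and 0.0544, adjusted p = 1.53e-16, 3.44e-18 and 1.05e-15), and no pair of knockdowns differed as a DEG. Per length of exon, the level of CXCL5 was 33.03 RPKM in siNC, 7.94 in siGABPA, 9.77 in siGPD1L and 9.99 in siBRD9, and that of CXCL8 was 9.902 RPKM in siNC, 6.62 in siGABPA, 37.6 in siGPD1L and 17.9 in siBRD9. CXCL5 was thus above CXCL8 in siNC and in siGABPA, and below it in siGPD1L and siBRD9.

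CXCL1, CXCL2 and CXCL3 were at low levels. CXCL1 was 1.18, 0.954 and 0.673 CPM in siNC, 2.16, 1.97 and 2.14 with siGABPA, 2.05, 1.62 and 1.44 with siGPD1L and 1.33, 2.200 and 1.99 with siBRD9. Every knockdown library was above every siNC library. Against siNC the log2 fold change was 1.17 in siGABPA, 0.88 in siGPD1L and 0.96 in siBRD9 (SE 0.241, 0.268 and 0.2900, adjusted p = 3.01e-04, 0.00603 and 0.00627). CXCL2 was 2.78, 2.21 and 3.37 CPM in siNC, 4.35, 4.44 and 4.14 with siGABPA, 3.88, 3.31 and 3.69 with siGPD1L and 3.28, 3.02 and 4.700 with siBRD9. It differed from siNC by log2 fold changes of 0.62 in siGABPA, 0.38 in siGPD1L and 0.40 in siBRD9 (SE 0.163, 0.174 and 0.199, adjusted p = 0.00242, 0.0571 and 0.0841), a DEG in siGABPA alone among the 3. That call was lost without siNC replicate 2, when the log2 fold change was 0.47, and the siGPD1L and siBRD9 libraries overlapped those of siNC. CXCL3 was 0.874, 1.41 and 1.302 CPM in siNC, 1.85, 2.01 and 1.29 with siGABPA, 1.59, 2.03 and 1.55 with siGPD1L and 1.19, 0.921 and 0.497 with siBRD9. No difference from siNC passed the test (adjusted p = 0.0792, 0.0626 and 0.273), with 95% intervals of the log2 fold change of -0.03 to 1.06 in siGABPA, 0.01 to 1.04 in siGPD1L and -1.09 to 0.27 in siBRD9. CXCL3 became a DEG in siGABPA with total counts only (0.73, adjusted p = 0.0155) and without siGABPA replicate 3 (0.69, adjusted p = 0.0272), and in siGPD1L with total counts only (0.70, adjusted p = 0.0164). It was higher in siGABPA than in siBRD9, by 0.94 (SE 0.286, adjusted p = 0.00717), and in siGPD1L than in siBRD9, by 0.94 (SE 0.278, adjusted p = 0.00765), calls that were both lost without siBRD9 replicate 3 with a log2 fold change of 0.67 in each. These 3 genes are close copies, and 4.81% of the 50-base exon windows of CXCL1, 12.5% of CXCL2 and 6.01% of CXCL3 were shared, in the main with each other.

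**Figure D3:**
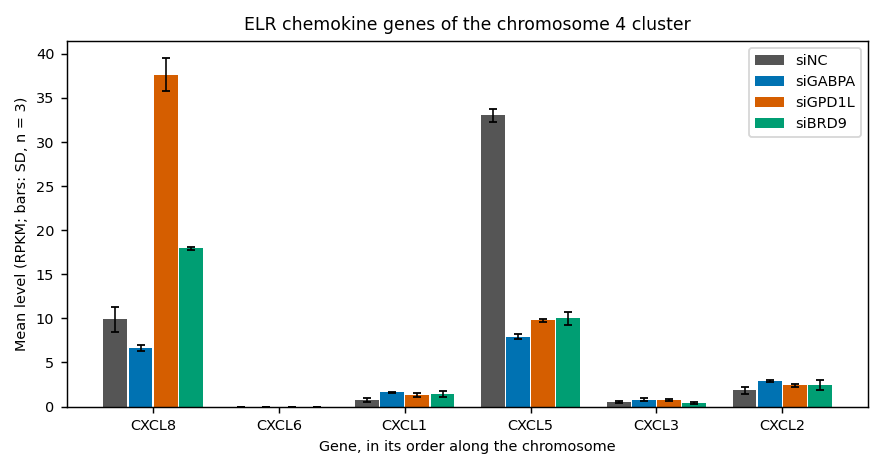
Mean level in RPKM (vertical axis from 0, bars for the SD over 3 libraries) of the ELR chemokine genes in their order along chromosome 4, by group. CXCL8 is tallest in siGPD1L at 37.6 RPKM, CXCL5 is tallest in siNC at 33.0 RPKM, CXCL6 is at 0 in all groups, and CXCL1, CXCL2 and CXCL3 stay under 3 RPKM.

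The other chemokines were higher or showed no call. CXCL11 (ENSG00000169248, chromosome 4, 76033682 to 76041415), a ligand of CXCR3 on T cells, was 0.668, 0.251 and 0.359 CPM in siNC, 2.09, 2.04 and 1.72 with siGABPA, 2.29, 2.704 and 1.62 with siGPD1L and 2.88, 1.74 and 2.26 with siBRD9. All knockdown libraries were above the siNC libraries, and the knockdown groups overlapped each other. On the log2 scale the difference from siNC was 2.19 in siGABPA, 2.38 in siGPD1L and 2.46 in siBRD9, given with no p because only the knockdown libraries met the filter on low counts. CXCL10, its neighbour and the other CXCR3 ligand here, was 8, 3 and 8 counts in siNC, 17, 12 and 16 with siGABPA, 10, 19 and 8 with siGPD1L and 11, 2 and 8 with siBRD9, too few in siGPD1L and siBRD9 for the test. It met the filter in siGABPA only through the siGABPA libraries, so that no p is given. It was not called there, at a log2 fold change of 0.76. With total counts only the value was 0.98, and the call it gained is a description. Both genes overlap ART3 on the opposite strand, which was listed at 0 counts in all 12 libraries.

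CX3CL1, a membrane-bound chemokine of epithelial and endothelial cells, was 20.5, 19.5 and 20.1 CPM in siNC, 27.8, 27.3 and 26.1 with siGABPA, 30.7, 28.96 and 31.6 with siGPD1L and 32.6, 31.9 and 31.4 with siBRD9. The knockdown libraries were all above siNC, with log2 fold changes of 0.43 in siGABPA, 0.61 in siGPD1L and 0.69 in siBRD9 (SE 0.0612, 0.06300 and 0.0617, adjusted p = 5.44e-06, 2.14e-08 and 6.82e-09), DEGs in siGPD1L and siBRD9. The siGPD1L call was lost without siNC replicate 2, with a log2 fold change of 0.58, and with total counts only the siGABPA value was 0.65 (adjusted p = 2.74e-08) and a DEG. CXCL16, a scavenger receptor and ligand of CXCR6, was 3.19, 3.92 and 3.46 CPM in siNC, 3.66, 3.35 and 3.72 with siGABPA, 4.58, 4.77 and 4.15 with siGPD1L and 5.27, 4.96 and 5.97 with siBRD9. It was a DEG in siBRD9 against siNC, at 0.63 (SE 0.145, adjusted p = 7.36e-04), a call lost without siNC replicate 1 or siBRD9 replicate 3 (log2 fold change 0.56 and 0.57), and its 95% interval in siGABPA was -0.29 to 0.34. MED11, which shares 85 exon bases with CXCL16 on the opposite strand, had 28 to 73 counts per library, beside 62 to 159 for CXCL16.

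In the IL-6 family, cytokines that signal through the shared receptor chain IL6ST (gp130), IL6 and IL11 rose as DEGs in all knockdowns. LIF was also higher in all knockdowns, but a DEG in siGPD1L and siBRD9 only. IL11 (ENSG00000095752, chromosome 19, 55364389 to 55370463), a fibrosis-related member known to be induced by TGFβ, was 2.98, 2.21 and 2.11 CPM in siNC, 14.3, 15.3 and 15.97 with siGABPA, 29.6, 26.6 and 27.1 with siGPD1L and 8.49, 8.65 and 8.22 with siBRD9. The groups did not overlap, and their order was siGPD1L, siGABPA, siBRD9 and siNC. Relative to siNC, the log2 fold change came to 2.65 in siGABPA, 3.52 in siGPD1L and 1.81 in siBRD9 (SE 0.123, 0.111 and 0.144, adjusted p = 1.53e-12, 5.46e-17 and 1.03e-09). IL11 was lower in siGABPA than in siGPD1L, by -0.87 (SE 0.0682, adjusted p = 5.83e-11), higher in siGABPA than in siBRD9, by 0.85 (SE 0.0846, adjusted p = 5.44e-09), and higher in siGPD1L than in siBRD9, by 1.72 (SE 0.0783, adjusted p = 1.94e-15), all on the log2 scale.

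IL6 (ENSG00000136244, chromosome 7, 22725884 to 22732002), the family's best known inflammatory member, was 0.771, 1.004 and 0.943 CPM in siNC, 3.66, 4.896 and 5.07 with siGABPA, 6.07, 5.51 and 5.03 with siGPD1L and 3.58, 3.38 and 3.62 with siBRD9. Every knockdown library exceeded every siNC library. edgeR gave a log2 fold change of 2.31 in siGABPA, 2.61 in siGPD1L and 1.96 in siBRD9 (SE 0.209, 0.189 and 0.212, adjusted p = 1.59e-08, 6.43e-11 and 8.92e-08), at between 15 and 21 counts per library in siNC. On the opposite strand IL6 shares 428 exon bases with AC073072.1 and 46 with STEAP1B, which had at most 14 and 5 counts per library. Between siGPD1L and siBRD9 the log2 fold change was 0.65 (SE 0.136, adjusted p = 3.61e-04), a call lost without siGPD1L replicate 1 (log2 fold change 0.57). LIF, leukemia inhibitory factor, was 93.05, 89.1 and 95.4 CPM in siNC, 141, 138 and 133 with siGABPA, 159, 150.5 and 149 with siGPD1L and 162, 166 and 152 with siBRD9. All knockdown libraries were above siNC, by log2 fold changes of 0.57 in siGABPA, 0.73 in siGPD1L and 0.80 in siBRD9 (SE 0.0375, 0.0403 and 0.0421, adjusted p = 2.02e-10, 7.46e-13 and 2.15e-12), of which that in siGABPA was just under the fold change of a DEG and became one with total counts only (0.79), with at least 10 counts in every library (0.62) and without siGABPA replicate 3 (0.60).

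Receptors of this family came from a list of receptors for the ligands described here and of related genes. IL11RA, the specific receptor of IL11, was 16, 12 and 8 counts in siNC, 76, 78 and 69 with siGABPA, 59, 52 and 48 with siGPD1L and 63, 40 and 58 with siBRD9. It met the filter on low counts only through the knockdown libraries, so that no test is given. OSMR, a chain that pairs with IL6ST, was 213, 208 and 217 CPM in siNC, 369.7, 375 and 393 with siGABPA, 459.7, 441 and 459 with siGPD1L and 439, 420.1 and 402 with siBRD9. All 3 differences were DEGs, at 0.83 in siGABPA, 1.10 in siGPD1L and 0.9953 in siBRD9. IL6ST itself was 94.5, 105 and 91.2 CPM in siNC, 85.9, 81.5 and 81.5 with siGABPA, 68.1, 70.98 and 72.5 with siGPD1L and 96.03, 96.7 and 96.3 with siBRD9. Neither it nor IL6R was a DEG against siNC. LIFR, the receptor chain for LIF, was a DEG in siGABPA, where it was lower, with log2 fold changes of -0.63 in siGABPA, -0.0049 in siGPD1L and -0.19 in siBRD9 (SE 0.0584, 0.0542 and 0.0618, adjusted p = 2.55e-08, 0.9400 and 0.0101).

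Among the other interleukins, IL32 (ENSG00000008517, chromosome 16, 3065297 to 3082192), a cytokine of epithelial and T cells that has no known mouse counterpart, had the highest level per length of the 36 genes in siNC. It was 464, 439.99 and 461 CPM in siNC, 185, 182 and 194 with siGABPA, 163, 169.9 and 160.3 with siGPD1L and 199.97, 199 and 209 with siBRD9. All knockdown libraries lay below siNC, at log2 fold changes of -1.28 in siGABPA, -1.46 in siGPD1L and -1.16 in siBRD9 (SE 0.0322, 0.0354 and 0.03500, adjusted p = 4.46e-16, 8.38e-19 and 5.39e-16). IL15, which sustains T and NK cells, was 25.4, 25.1 and 25.6 CPM in siNC, 24.7, 24.3 and 26.2 with siGABPA, 23.1, 23.2 and 22.3 with siGPD1L and 20.7, 22.00 and 21.9 with siBRD9. None of its log2 fold changes (-0.02 in siGABPA, -0.15 in siGPD1L and -0.23 in siBRD9) reached the size of a DEG. Its receptor IL15RA was a DEG in all 3, at 0.88 in siGABPA, 1.43 in siGPD1L and 0.89 in siBRD9.

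IL1A, an alarmin of epithelial cells, was 3, 2 and 1 counts in siNC, 12, 14 and 11 with siGABPA, 9, 13 and 11 with siGPD1L and 6, 0 and 4 with siBRD9. The ratio of summed counts per scaled total to siNC was 4.44 (95% counting interval 1.86 to 12.9) in siGABPA. In siGPD1L the same ratio was 3.92 (95% counting interval 1.62 to 11.5) and in siBRD9 1.43 (95% counting interval 0.471 to 4.79). The gene met the filter on low counts only through the siGABPA libraries, so that no test is given. IL1B, made mostly by myeloid cells, was 2, 0 and 2 counts in siNC, 1, 2 and 5 with siGABPA, 13, 8 and 5 with siGPD1L and 2, 1 and 2 with siBRD9. Its ratio to siNC was 1.44 (95% counting interval 0.386 to 6.54) in siGABPA and 4.64 (95% counting interval 1.61 to 18.3) in siGPD1L. IL1RAP, the shared chain of the interleukin 1 receptor, was a DEG in all 3, at log2 fold changes of 1.30 in siGABPA, 1.42 in siGPD1L and 0.77 in siBRD9.

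TSLP, an epithelial cytokine that activates dendritic cells, was 0, 0 and 1 counts in siNC, 7, 8 and 17 with siGABPA, 37, 42 and 33 with siGPD1L and 19, 6 and 10 with siBRD9. The siGPD1L libraries were the highest, and all knockdown libraries were above siNC. The ratio to siNC was 23.1 (95% counting interval 3.85 to 939) in siGABPA, 79.9 (95% counting interval 14.1 to 3185) in siGPD1L and 30.04 (95% counting interval 5.05 to 1220.0) in siBRD9, wide intervals since siNC had 1 count in all. TSLP met the filter on low counts only through the siGPD1L libraries, so that no test is given. One chain of its receptor, IL7R, was a DEG in all 3 comparisons with siNC, at 1.54 in siGABPA, 1.46 in siGPD1L and 0.97 in siBRD9.

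The colony stimulating factors moved in opposite directions. CSF1 (ENSG00000184371, chromosome 1, 109910242 to 109930992), which maintains macrophages, was 169, 167 and 176 CPM in siNC, 95.9, 93.5 and 92.4 with siGABPA, 98.1, 94.6 and 103 with siGPD1L and 101, 94.9 and 101 with siBRD9. Every knockdown library was lower than any siNC library. The log2 fold change was -0.86 in siGABPA, -0.79 in siGPD1L and -0.77 in siBRD9 (SE 0.0349, 0.0393 and 0.0395, adjusted p = 2.43e-13, 1.34e-13 and 1.56e-12), and the knockdowns differed from each other by at most -0.07, between siGABPA and siBRD9, with a 95% interval of -0.15 to 0.004. CSF2 (ENSG00000164400, chromosome 5, 132073790 to 132076170), or GM-CSF, a growth factor of granulocytes and macrophages, was 1.03, 0.853 and 0.808 CPM in siNC, 1.23, 2.04 and 1.25 with siGABPA, 6.17, 6.18 and 4.64 with siGPD1L and 6.698, 5.88 and 7.502 with siBRD9. The siGPD1L and siBRD9 libraries were far above the others and overlapped each other. Its log2 fold change was 0.75 in siGABPA, 2.67 in siGPD1L and 2.91 in siBRD9 (SE 0.282, 0.201 and 0.187, adjusted p = 0.0234, 1.20e-10 and 4.43e-11). The small rise in siGABPA was no longer called with DESeq2 (adjusted p = 0.0598), without siNC replicate 2 (0.0557) or 3 (0.0727), or without siGABPA replicate 2 (0.163, log2 fold change 0.48). CSF2 was lower in siGABPA than in siGPD1L, by a log2 fold change of -1.90 (SE 0.186, adjusted p = 3.02e-09), and than in siBRD9, by -2.15 (SE 0.1800, adjusted p = 2.38e-10), while siGPD1L and siBRD9 did not differ past the test (95% interval -0.51 to 0.02).

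In the TNF family, TNF (ENSG00000232810, chromosome 6, 31575567 to 31578336), the classical activator and target of NF-κB, was 2.93, 3.31 and 3.37 CPM in siNC, 0.308, 0.634 and 0.357 with siGABPA, 0.353, 0.473 and 0.457 with siGPD1L and 1.56, 1.33 and 1.58 with siBRD9. The siNC libraries were the highest, siBRD9 lay between, and siGABPA and siGPD1L overlapped at the lowest level. In siBRD9, where both groups met the filter on low counts, the log2 fold change against siNC was -1.08 (SE 0.195, adjusted p = 6.14e-05). It was -2.88 in siGABPA, -2.88 in siGPD1L and -1.78 in siGABPA against siBRD9, given with no p because siGABPA, and siGPD1L beside siNC, did not meet the filter alone. TNF was lower in siGPD1L than in siBRD9, by -1.79 (SE 0.305, adjusted p = 2.59e-05). Between siGABPA and siGPD1L the 95% interval was -0.82 to 0.85, on counts of 9 to 18 per library. Its receptor TNFRSF1A had log2 fold changes of 0.24 in siGABPA, 0.42 in siGPD1L and 0.17 in siBRD9, none of them a DEG.

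TNFSF10 (ENSG00000121858, chromosome 3, 172505508 to 172523507), or TRAIL, a death ligand that is also known to be induced by interferon, was 145, 148 and 142 CPM in siNC, 298, 307 and 307 with siGABPA, 270.5, 252 and 278 with siGPD1L and 397, 411 and 386 with siBRD9. No knockdown library overlapped siNC, and siBRD9 was the highest. On the log2 scale the difference from siNC was 1.07 in siGABPA, 0.89 in siGPD1L and 1.47 in siBRD9 (SE 0.0307, 0.0385 and 0.0359, adjusted p = 2.38e-15, 1.23e-14 and 2.21e-17). One of its death receptors, TNFRSF10B, was likewise a DEG in all 3 groups, at 0.65 in siGABPA, 0.98 in siGPD1L and 1.11 in siBRD9.

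**Figure D4:**
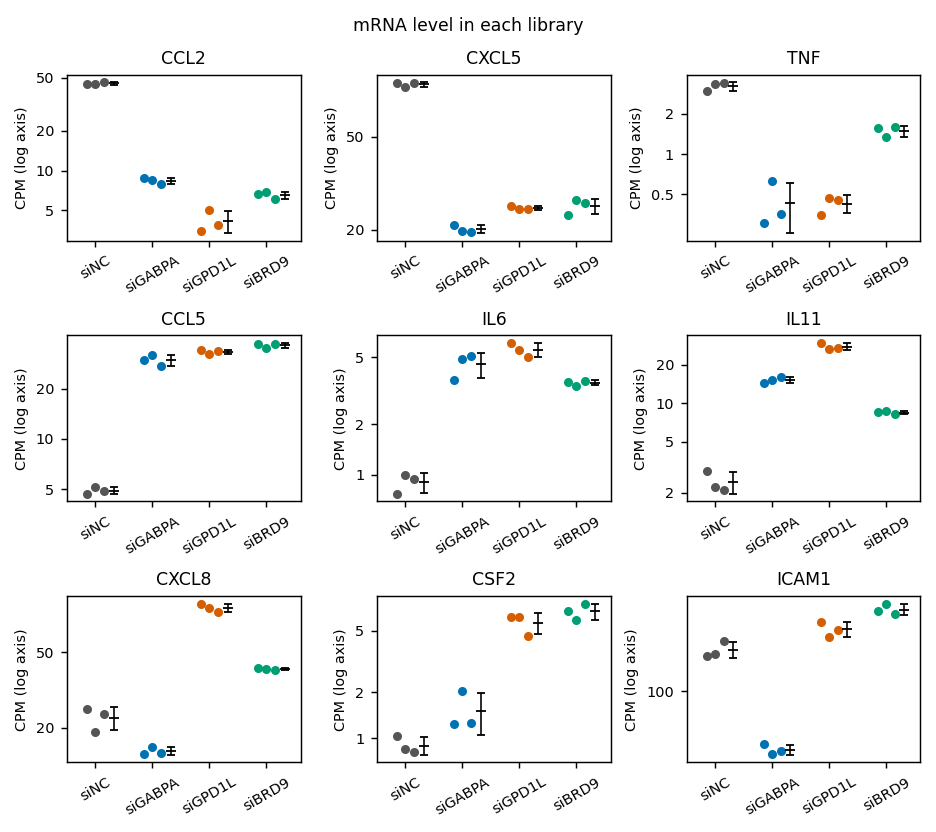
CPM of 9 genes in each library (vertical log axis, 1 point per library, horizontal marks with bars for the mean and SD of 3 libraries). CCL2, CXCL5 and TNF are highest in siNC, CCL5, IL6 and IL11 are lowest in siNC, and in CXCL8, CSF2 and ICAM1 the siGABPA libraries lie below those of siGPD1L and siBRD9.

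Of the 4 genes for NF-κB subunits, only NFKB1 was a DEG against siNC. NFKB1, which encodes p105 and its product p50, was 100.1, 96.2 and 98.6 CPM in siNC, 46.5, 49.1 and 44.4 with siGABPA, 63.9, 61.4 and 56.8 with siGPD1L and 69.9, 70.9 and 71.9 with siBRD9. The groups did not overlap, with siGABPA the lowest. Relative to siNC, the log2 fold change came to -1.07 in siGABPA, -0.69 in siGPD1L and -0.46 in siBRD9 (SE 0.0426, 0.0453 and 0.0399, adjusted p = 1.77e-13, 1.28e-11 and 4.05e-09), a DEG in siGABPA and siGPD1L, though with total counts only the siGPD1L value was -0.52 and no longer a DEG. NFKB2, which encodes p100 and p52 of the alternative pathway, was 149, 136 and 145 CPM in siNC, 137, 137 and 134 with siGABPA, 207, 203 and 195 with siGPD1L and 198, 200.5 and 191 with siBRD9. It was a DEG in none, at -0.08 in siGABPA, 0.50 in siGPD1L and 0.47 in siBRD9 (SE 0.0365, 0.0393 and 0.0395, adjusted p = 0.0727, 2.60e-10 and 2.55e-09), but lay above siNC without overlap in siGPD1L and siBRD9. It became a DEG there with total counts only (0.67 and 0.59). RELA, the main activating subunit, was 92.6, 92.1 and 94.8 CPM in siNC, 83.4, 89.1 and 87.8 with siGABPA, 92.1, 87.1 and 92.1 with siGPD1L and 84.4, 76.3 and 81.4 with siBRD9. Its differences from siNC were -0.10 in siGABPA, -0.04 in siGPD1L and -0.19 in siBRD9 on the log2 scale. RELB, partner of p52, had log2 fold changes of -0.25 in siGABPA, 0.04 in siGPD1L and 0.15 in siBRD9. The 95% intervals of RELA were -0.18 to -0.03 in siGABPA, -0.12 to 0.04 in siGPD1L and -0.28 to -0.10 in siBRD9.

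NFKBIA (ENSG00000100906, chromosome 14, 35401511 to 35404749), the inhibitor IκBα, was 63.7, 63.9 and 60.7 CPM in siNC, 35.3, 35.6 and 35.3 with siGABPA, 30.5, 32.1 and 31.2 with siGPD1L and 50.4, 52.9 and 55.2 with siBRD9. All knockdown libraries were below siNC, and siBRD9 was nearest to it. edgeR gave a log2 fold change of -0.83 in siGABPA, -1.0003 in siGPD1L and -0.24 in siBRD9 (SE 0.0438, 0.0476 and 0.04800, adjusted p = 9.54e-12, 5.85e-14 and 1.97e-04), a DEG in siGABPA and siGPD1L. It was lower in siGPD1L than in siBRD9, by -0.75 (SE 0.0528, adjusted p = 7.23e-12). TNFAIP3, the inhibitory enzyme A20, was 25.9, 30.1 and 31.1 CPM in siNC, 26.8, 28.3 and 30.5 with siGABPA, 33.6, 30.96 and 30.4 with siGPD1L and 32.2, 33.7 and 32.9 with siBRD9. Its log2 fold changes of -0.03 in siGABPA, 0.13 in siGPD1L and 0.19 in siBRD9 were far from the size of a DEG.

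Among the remaining targets, ICAM1 was lower in siGABPA than in every other group. ICAM1 (ENSG00000090339, chromosome 19, 10270835 to 10286615), the adhesion molecule that binds leukocyte integrins, was 119.7, 121 and 129 CPM in siNC, 76.5, 72.8 and 73.9 with siGABPA, 142, 132 and 136 with siGPD1L and 149.97, 156 and 148 with siBRD9. The siGABPA libraries were below all others, and those of siGPD1L and siBRD9 were slightly above siNC. The log2 fold change was -0.73 in siGABPA, 0.16 in siGPD1L and 0.31 in siBRD9 (SE 0.0397, 0.0411 and 0.0397, adjusted p = 1.41e-11, 0.00191 and 1.08e-06), a DEG in siGABPA, where it was -0.51 and not a DEG with total counts only. Compared directly, ICAM1 was lower in siGABPA than in siGPD1L, by -0.87 (SE 0.0378, adjusted p = 4.87e-16), and than in siBRD9, by -1.02 (SE 0.0372, adjusted p = 4.79e-17).

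BIRC3, or cIAP2, a ubiquitin ligase of TNF receptor complexes, was 171, 174 and 169 CPM in siNC, 142, 134 and 130.1 with siGABPA, 162, 156 and 169.5 with siGPD1L and 243, 253 and 258 with siBRD9. It was below siNC in siGABPA and above it in siBRD9 without overlap, at log2 fold changes of -0.34 in siGABPA, -0.07 in siGPD1L and 0.56 in siBRD9 (SE 0.0364, 0.0369 and 0.0352, adjusted p = 1.38e-07, 0.0943 and 3.03e-11), none of them a DEG. With total counts only, the siBRD9 value was 0.69 and a DEG. It was a DEG between the knockdowns, lower in siGABPA than in siBRD9, by -0.89 (SE 0.0369, adjusted p = 4.72e-16), and lower in siGPD1L than in siBRD9, by -0.63 (SE 0.0374, adjusted p = 3.49e-13). TNFAIP2, a TNF-induced gene of the exocyst family, was 244, 238 and 252 CPM in siNC, 175, 168 and 158 with siGABPA, 137, 128 and 136 with siGPD1L and 201, 193 and 203 with siBRD9, lower without overlap in all knockdowns. It was a DEG in siGPD1L, with log2 fold changes of -0.55 in siGABPA, -0.86 in siGPD1L and -0.28 in siBRD9 (SE 0.0383, 0.0377 and 0.0359, adjusted p = 4.28e-10, 1.37e-14 and 7.99e-07). VCAM1, which binds the integrin VLA-4, was 40.97, 44.2 and 45.1 CPM in siNC, 46.8, 45.8 and 48.95 with siGABPA, 68.9, 62.1 and 66.4 with siGPD1L and 47.5, 48.1 and 44.6 with siBRD9. Its log2 fold change was 0.12 in siGABPA, 0.60 in siGPD1L and 0.12 in siBRD9 (SE 0.0497, 0.0512 and 0.0535, adjusted p = 0.04200, 8.77e-10 and 0.0606), a DEG in siGPD1L that was lost without siNC replicate 1 (0.56) or siGPD1L replicate 1 (0.58).

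Comparing the knockdowns with each other used no control library. Between siGABPA and siGPD1L, 1 of the 33 genes tested was higher in siGABPA (CCL2) and 5 were lower (CXCL8, IL11, CSF2, TSLP and ICAM1), where 8.54% and 6.9% of all genes tested were called. Between siGABPA and siBRD9, 3 of 33 were higher in siGABPA (CXCL3, IL11 and IL1A) and 7 lower (CXCL8, CXCL16, CSF2, TNF, NFKB1, BIRC3 and ICAM1), against 8.52% and 5.74%. Between siGPD1L and siBRD9, 5 of 32 were higher in siGPD1L (CXCL3, CXCL8, IL6, IL11 and TSLP) and 4 lower (CCL2, TNF, NFKBIA and BIRC3), against 4.01% and 2.91%. Libraries of the first group lay wholly above those of the second for 7 tested genes and below for 15 between siGABPA and siGPD1L, where 29.3% and 30.1% of all genes did so. Between siGABPA and siBRD9 these numbers were 7 and 18 (28.7% and 29.8%), and between siGPD1L and siBRD9 they were 8 and 11 (24.3% and 23.5%). At an adjusted p below 0.05 alone, the numbers were 5 and 16 (26.6% and 27.6% of all genes) for siGABPA against siGPD1L, 7 and 18 (26% and 27.3%) against siBRD9, and 7 and 9 (19.8% and 19.5%) for siGPD1L against siBRD9. TSLP, IL1A and, in siGABPA against siBRD9, TNF met the filter on low counts only through the higher group, so that their calls are a description. Without them, the numbers higher and lower were 1 and 4 for siGABPA against siGPD1L, 2 and 6 against siBRD9, and 4 and 4 for siGPD1L against siBRD9. The IL1A call was lost with DESeq2 (log2 fold change 1.69), without siGABPA replicate 2 (1.51) and without siBRD9 replicate 2 (1.16). CXCL8, CSF2 and ICAM1 were lower in siGABPA than in both other knockdowns, and IL11 was highest in siGPD1L and lowest of the 3 in siBRD9. The calls of CXCL16 (-0.55 without siGABPA replicate 2, -0.52 without siBRD9 replicate 3 and with total counts only, -0.58 with at least 10 counts in every library) and of NFKB1 (-0.57 without siGABPA replicate 3, -0.52 with total counts only, -0.58 with at least 10 counts in every library) between siGABPA and siBRD9 stood close to the fold change of a DEG and were lost in those settings. Just short of that fold change were NFKB2 in siGABPA against siGPD1L, called lower without siGPD1L replicate 3 (-0.59), and NFKBIA in siGABPA against siBRD9, called lower without siBRD9 replicate 1 (-0.61). In siGPD1L against siBRD9, TNFSF10 was called lower without siGPD1L replicate 1 or 3 or siBRD9 replicate 3 (-0.59, -0.61 and -0.60), and TNFAIP2 without siGPD1L replicate 1 or 3 or siBRD9 replicate 2, at -0.59 each.

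**Figure D5:**
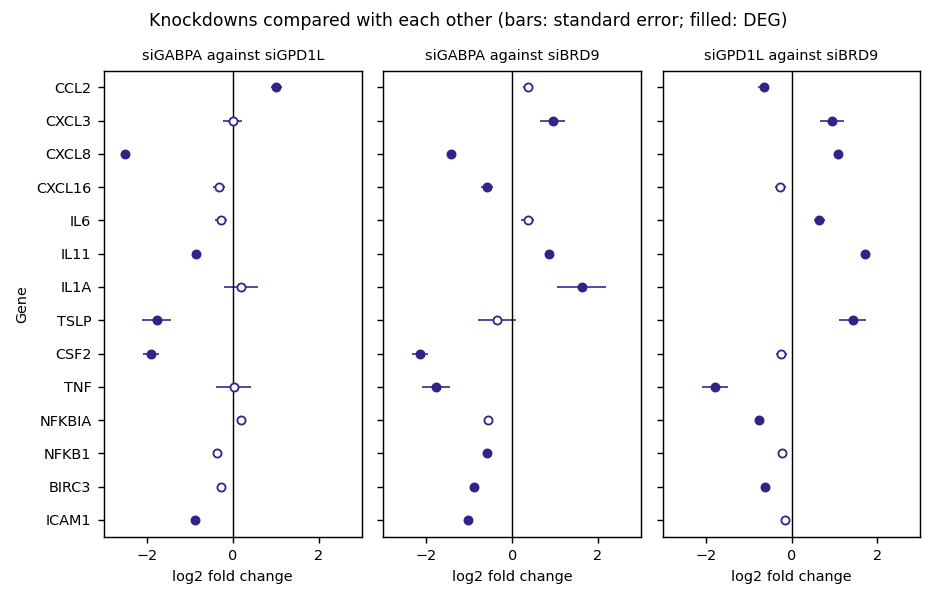
log2 fold change (horizontal axis, bars for the standard error) between each pair of knockdowns for the 14 genes that were DEGs in at least 1 pair, with filled points for DEGs. CXCL8, CSF2 and ICAM1 lie left of 0 in both panels that set siGABPA against another knockdown, and IL11 and CXCL8 lie right of 0 in siGPD1L against siBRD9. TSLP in the panels with siGPD1L, IL1A, and TNF in siGABPA against siBRD9 met the filter on low counts only through the higher group. Those points are a description.

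The further genes of the pathway came from lists written by role, which share some genes, so that their counts are not separate. IL7R, for example, was counted as higher both in the receptor list and among the further NF-κB targets. A list of 33 genes held receptors for these ligands and related genes, such as OSMR and IL1RN. Of these, 6 were higher and 1 lower with siGABPA (of 14 tested), 8 and 0 with siGPD1L (of 15) and 7 and 0 with siBRD9 (of 14). Among these, IL11RA in all 3 groups and CSF1R in siGPD1L met the filter on low counts only through the knockdown libraries, which leaves 5, 6 and 6 higher. For comparison, the shares of all genes called higher and lower were 21.3% and 15.2% with siGABPA, 20.4% and 15.5% with siGPD1L, and 16.7% and 11.5% with siBRD9. The CXCL8 receptors CXCR1 and CXCR2 had 0 counts in all 12 libraries, which allows up to 3 counts per library. Of 33 genes of NF-κB signal transduction, all but 1 tested, 4 were higher and 3 lower with siGABPA, 6 and 3 with siGPD1L, and 3 and 2 with siBRD9. These shares lie below those of all genes in every comparison and direction. IKBKB, the kinase that marks IκBα for degradation, was higher in all 3, at 0.94 in siGABPA, 1.13 in siGPD1L and 0.92 in siBRD9, and so was IRAK2 of the interleukin 1 receptor complex, at 0.92 in siGABPA, 1.42 in siGPD1L and 1.32 in siBRD9. Its relative IRAK1 was lower in all 3, at -1.11 in siGABPA, -0.99 in siGPD1L and -0.79 in siBRD9, as was MAP3K14, the kinase of the alternative pathway, at -1.07 in siGABPA, -0.84 in siGPD1L and -0.62 in siBRD9.

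Of 46 further NF-κB targets, 11 were higher and 4 lower with siGABPA (of 34 tested), 17 and 2 with siGPD1L (of 36) and 15 and 1 with siBRD9 (of 35), beside 21.3% and 15.2%, 20.4% and 15.5%, and 16.7% and 11.5% of all genes. Of those called higher, 3 with siGABPA, 6 with siGPD1L and 4 with siBRD9 met the filter on low counts only through the knockdown libraries, which leaves 8, 11 and 11. The same holds, through the siNC libraries, for LTB, called lower with siGABPA and siGPD1L. The complement gene C3 rose in all 3, at 2.67 in siGABPA, 3.22 in siGPD1L and 4.34 in siBRD9. CFB, another complement gene, was 1, 2 and 3 counts in siNC, 38, 32 and 27 with siGABPA, 22, 24 and 30 with siGPD1L and 25, 19 and 20 with siBRD9, and LCN2, an iron-binding acute phase protein, was 3, 4 and 1 counts in siNC, 17, 22 and 25 with siGABPA, 47, 51 and 27 with siGPD1L and 35, 27 and 28 with siBRD9, both among the genes that met the filter only through the knockdown libraries. TNFRSF9, a costimulatory receptor, was lower in all 3, at -1.25 in siGABPA, -1.94 in siGPD1L and -1.19 in siBRD9. SOD2 and CD44 were DEGs in siGABPA, both lower, at -0.92 and -0.65.

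CCL5, CXCL11 and TNFSF10 are known to respond to interferon as well, and a list of 21 interferons and interferon-induced genes was measured beside them. Of the 17 tested, 15 were higher (IRF9 among them met the filter on low counts only through the knockdown libraries) and 1 was lower in each of the 3 comparisons with siNC, where the shares of all genes are those given for the receptors, and the median log2 fold change was 1.638 in siGABPA, 2.106 in siGPD1L and 1.863 in siBRD9. ISG15 was 113, 108 and 126 CPM in siNC, 976, 964 and 1016 with siGABPA, 1120.0, 1169.8 and 1112 with siGPD1L and 952, 975.2 and 1006 with siBRD9. OAS2, a sensor of double-stranded RNA, had log2 fold changes of 5.23 in siGABPA, 5.04 in siGPD1L and 4.70 in siBRD9. The part of an interferon response in the levels of CCL5, CXCL11 and TNFSF10 was not tested.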

How the data were processed

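Gene counts were deposited by the authors as 1 table of 60448 genes by 12 libraries of whole-number read counts, not normalized. The submitters' notes list HISAT2, HTSeq, DESeq2 and build hg38, whereas the study's methods name featureCounts for the counting, and the annotation release and the strand setting are not given in the sources used here. Libraries were grouped by their labels. Counts were tested with edgeR 4.0.16 in R 4.3.3 (TMM scaling, filterByExpr, quasi-likelihood test) on the 6 libraries of each comparison, with Benjamini-Hochberg adjustment over all genes tested, and DEGs had a difference of more than 1.5 times at an adjusted p below 0.05, the study's thresholds. CPM used TMM factors over all 12 libraries, and RPKM used the summed exon length of GENCODE 29. Genes under 10 counts in every library were called not detected. Ratios of summed counts have exact 95% intervals that cover counting error only. Alternatives were RLE scaling, total counts, DESeq2 1.42.0, 2 other filters on low counts, 1 fit over all libraries, a replicate block and leaving out each library. All 36 genes were described, and the genes and lists were chosen with earlier results of these data known. The smallest two-sided p of an exact permutation test of 3 libraries against 3 is 0.1, so single genes were tested in the fit across all genes. The pairs of replicates differed by more than sampling noise, so none was counted as 1 library. Single genes of the further lists that are withheld are not reported here.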

Additional observations from a re-analysis of the deposited data

How the results depend on the processing

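With an adjusted p below 0.05 alone, the number of genes lower than in siNC was 13 in siGABPA and 10 in siBRD9, the number higher and lower in siGABPA was 5 and 16 against siGPD1L and 7 and 18 against siBRD9, and the number lower in siGPD1L than in siBRD9 was 9. Requiring 10 counts in every library left 4 genes lower in siGABPA than in siBRD9, where CXCL16 and NFKB1 were still tested but fell under the fold change of a DEG. All other counts of DEGs among the 36 genes stayed within 1.5 times under these settings and under RLE scaling, total counts, DESeq2, the filter of 1 count, 1 fit over all libraries and leaving out each library. With total counts alone, log2 fold changes that had been close to 0 changed sign to IL15 0.20, TNFAIP3 0.19, NFKB2 0.14 and RELA 0.11 in siGABPA against siNC, IL15 0.025, RELA 0.13 and BIRC3 0.0997 in siGPD1L against siNC, CXCL3 0.035 in siGABPA against siGPD1L, CCL20 0.017 and CSF1 0.0011 in siGABPA against siBRD9, CXCL2 0.025, CXCL5 0.013 and CSF1 0.027 in siGPD1L against siBRD9. With at least 10 counts in every library, log2 fold changes that had been close to 0 changed sign to IL15 0.037 and TNFAIP3 0.025 in siGABPA against siNC, CXCL3 0.0071 in siGABPA against siGPD1L. Leaving out 1 library at a time turned the sign of uncalled values over the ranges CXCL16 -0.055 to 0.091, IL15 -0.042 to 0.015 and TNFAIP3 -0.12 to 0.023 in siGABPA against siNC, RELB -0.0036 to 0.098 in siGPD1L against siNC, CCL20 -0.72 to 0.12, CXCL3 -0.13 to 0.16 and TNF -0.36 to 0.21 in siGABPA against siGPD1L, CCL20 -0.50 to 0.41 and VCAM1 -0.021 to 0.034 in siGABPA against siBRD9, CCL20 -0.21 to 0.70, CXCL1 -0.30 to 0.065, CXCL2 -0.12 to 0.19, CXCL5 -0.091 to 0.013, CXCL11 -0.26 to 0.14 and CSF1 -0.045 to 0.014 in siGPD1L against siBRD9. With total counts, the median log2 fold change of all genes against siNC moved as well, from 0.0246 to 0.2422 in siGABPA and from 0.0145 to 0.1843 in siGPD1L. The cause of the sign changes was not tested. The replicate numbers were not treated as pairs, since the deviations of libraries with the same number correlated between -0.106 and 0.1 over 11461 genes. Between siGABPA and siNC these correlations were 0.034, 0.083 and 0.062, small but all positive. Libraries with different numbers correlated between -0.057 and -0.006, values that are not independent of these because deviations were taken from the group mean. With the number as a block, the DEGs among the 36 genes were 9 higher and 8 lower with siGABPA, 13 and 8 with siGPD1L and 11 and 5 with siBRD9, and CXCL2 in siGPD1L against siBRD9 changed sign to 0.0019. Depth limited CXCL10, CXCL11, IL1A, IL1B, CCL20, TSLP and TNF, which had under 20 counts in all libraries of at least 1 group. CXCL6 and PTGS2 were not detected, and whether greater depth would show them was not tested.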
